A study of Mus musculus with 9 samples.

Results

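The Hoxb cluster was followed as a set of 10 genes, Hoxb1, Hoxb2, Hoxb3, Hoxb4, Hoxb5, Hoxb5os, Hoxb6, Hoxb7, Hoxb8 and Hoxb9. They were found by matching Ensembl mouse gene identifiers to symbols among the 37980 genes of the series. The rule for the set used no measured value, but earlier results of these data were known when it was chosen. Of the 10 members, 9 had a read in at least 1 library and 8 passed the filter on low counts.

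RNA-seq libraries of myeloid progenitor cells (MPs, Lin-c-kit+Sca1-, from bone marrow) were compared between 4 NA MP and 5 WT MP samples, all on the C57BL/6 strain. NA MPs descended from multipotent progenitors (MPPs) that expressed NA, the Nup98-Hoxa10hd fusion gene, from the Rosa26 locus after Vav-Cre, which acts in blood cells, had removed a stop cassette. NA MPs were sorted as Tdtomato+ cells and WT MPs as CD45.2+ cells, in each case from irradiated adult recipients of MPPs of that kind given together with helper bone marrow. The labels put the sort at 3 months after transplantation, and the methods of the study at a later month. WT MPs were gated on CD45.2, which the study elsewhere uses for recipient cells, so their origin (donor MPPs, helper marrow or the recipient) is not known. Neither the labels nor the methods tie a sample to a single mouse, so the p-values measure only the spread between these samples, which may be technical. Each sample was made of 100000 sorted cells. The libraries held between 5557721 and 8106140 reads on genes, and 3 reads, the floor for counting error, corresponded to 0.370 to 0.540 CPM (counts scaled to 1000000 per library).

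Hox genes encode homeodomain transcription factors that lie in 4 clusters, in an order that follows the body axis along which they are used in the embryo. In blood, Hoxa and Hoxb genes are most active in stem and early progenitor cells and are shut off as cells mature, and forced expression of several of them expands stem cells or blocks myeloid maturation. Trithorax proteins such as Kmt2a keep the clusters open, Polycomb proteins keep them closed, and Hox proteins bind DNA together with Pbx and Meis proteins.

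In GENCODE M21 (GRCm38, the build that the submitters' notes call mm10), the cluster from Hoxb9 to Hoxb1 takes up 96.8 kb at chr11:96271457-96368256. All Hoxb protein-coding genes there lie on the plus strand with Hoxb9 first and Hoxb1 last, so the gene numbers fall along the chromosome. Hoxb5os lies on the minus strand across Hoxb6 and Hoxb5. The span holds 13 annotated genes, and the other 3 are Hoxb3os and Gm11536, both antisense to Hoxb3, and the microRNA gene Mir10a between Hoxb5 and Hoxb4.

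Promoters are shown for the 3 of 10 members that the RefSeq table used here (GRCm38.p6) holds. They are those of the only tested member with no read in WT MPs (Hoxb8), the member with the highest level in both groups (Hoxb4) and the one with no read anywhere (Hoxb1). Each sequence gives the 250 bases before the RefSeq start of the gene on the plus strand, 5′ to 3′, with matches to 4 motifs in capitals. For Hoxb1 GENCODE M21 places the start a few bases before that of RefSeq, so the window ends inside the gene as GENCODE gives it. The motifs were TGATNNAT (bound by Hox-Pbx pairs), TTTATNG (bound by posterior Hox proteins), CCAAT (the NF-Y box) and CACGTG (the E box bound by Usf proteins), searched on both strands.
Hoxb8, chr11:96281655-96281904: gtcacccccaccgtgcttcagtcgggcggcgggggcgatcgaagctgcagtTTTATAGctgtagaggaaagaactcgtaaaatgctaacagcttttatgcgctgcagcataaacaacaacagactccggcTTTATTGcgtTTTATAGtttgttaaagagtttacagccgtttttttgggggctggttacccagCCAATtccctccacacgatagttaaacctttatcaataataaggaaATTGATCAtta
Hoxb4, chr11:96318017-96318266: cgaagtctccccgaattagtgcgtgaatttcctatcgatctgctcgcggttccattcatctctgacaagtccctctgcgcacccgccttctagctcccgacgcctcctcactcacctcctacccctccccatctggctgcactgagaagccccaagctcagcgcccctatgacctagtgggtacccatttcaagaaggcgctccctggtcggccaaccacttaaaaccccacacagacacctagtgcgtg
Hoxb1, chr11:96365508-96365757: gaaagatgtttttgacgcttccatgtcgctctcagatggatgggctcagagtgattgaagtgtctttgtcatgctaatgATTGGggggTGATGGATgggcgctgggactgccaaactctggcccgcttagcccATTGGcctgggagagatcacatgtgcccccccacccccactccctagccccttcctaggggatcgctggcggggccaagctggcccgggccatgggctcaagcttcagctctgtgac

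The Hoxb8 promoter held 3 matches to TTTATNG, 1 to TGATNNAT and 1 to CCAAT, whereas the Hoxb1 promoter held 1 to TGATNNAT and 2 to CCAAT. None of the letters searched for was found in the Hoxb4 window, and CACGTG was in none of the 3 windows. No matches overlapped. Of 32851 promoters of the same length, 7.68% held TGATNNAT, 9.81% TTTATNG, 33.8% CCAAT and 6.02% CACGTG. The promoters had 12 (Hoxb8), 14 (Hoxb4) and 7 (Hoxb1) CpG dinucleotides, against a median of 6 over all promoters. These matches are letters only and were not tested for binding.

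Reads of Hoxb genes were more frequent in NA MPs than in WT MPs over most of the cluster. Of the 8 tested members, 7 were higher and 1, Hoxb2, was lower in NA MPs at an adjusted p under 0.05 (quasi-likelihood test of edgeR, Benjamini-Hochberg adjustment over the 11966 tested genes). Over all tested genes 34.2% passed the same threshold, with 17.9% higher and 16.3% lower. In the 7 members that rose, every NA MP library lay above every WT MP library, which held for 14.1% of all tested genes, while 12.2% had every NA MP library below. Such a split gives the smallest p that an exact two-sided permutation test can reach with 4 against 5 samples, 0.0159. The median log2 fold change of the tested members was 4.38, or 3.97 with Hoxb8 at its bound (given with that gene), beside -0.0013 for all tested genes. Only 2 members, Hoxb4 and Hoxb2, had at least 10 reads in 4 of the 5 WT MP libraries, so the others passed the filter through the NA MP libraries, where they had to be high to be tested at all. These are bulk samples, in which more cells that express a gene cannot be told apart from more RNA per cell.

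**Figure D1:**
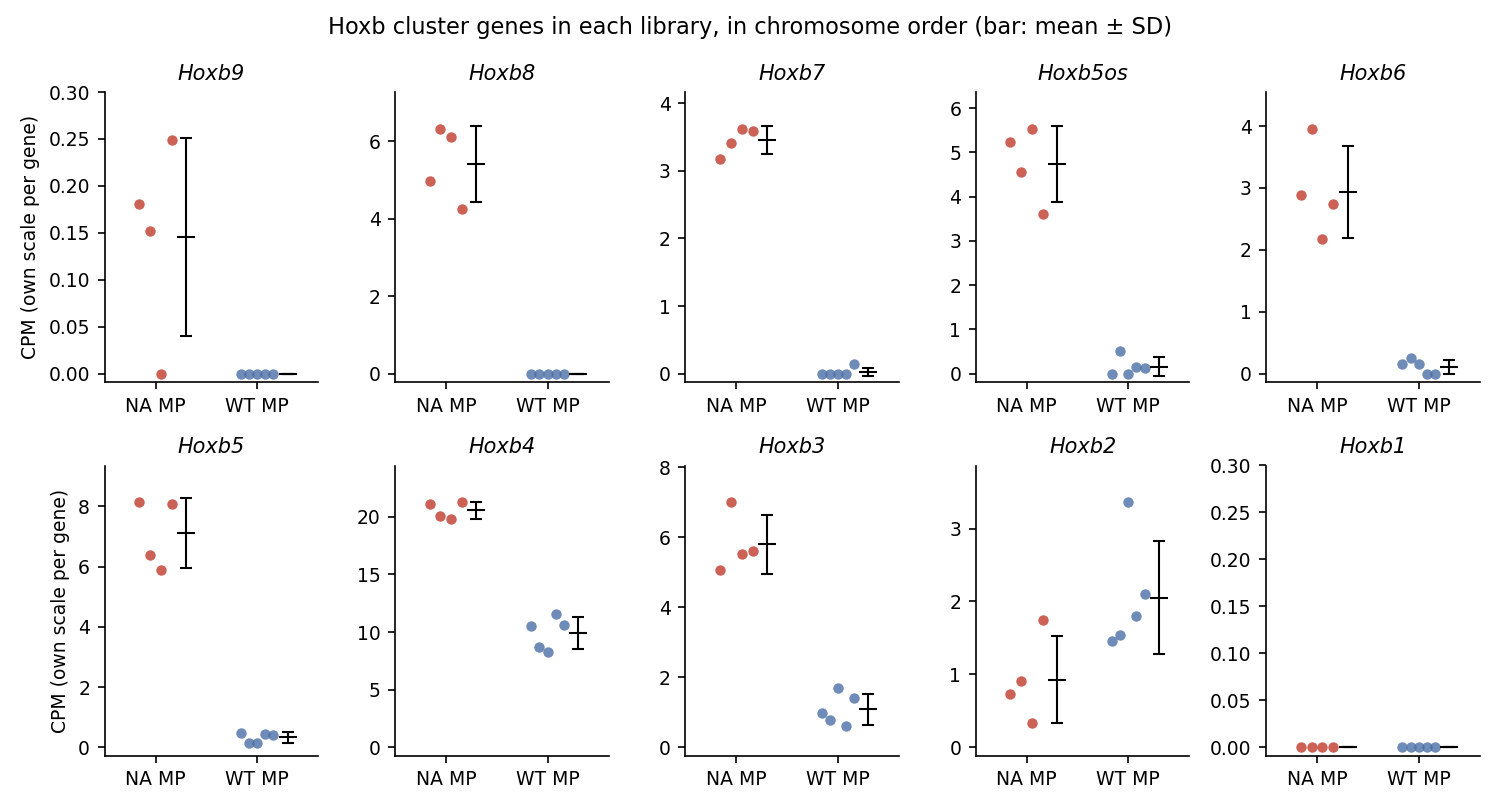
CPM of the 10 Hoxb members in each library, with genes in chromosome order, NA MP libraries in red (n = 4), WT MP libraries in blue (n = 5), the mean ± SD beside them and a vertical scale of its own for each gene. The groups are apart for 7 genes from Hoxb8 to Hoxb3, overlap for Hoxb2 and Hoxb9, and are all at 0 for Hoxb1.

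The central genes, Hoxb5 to Hoxb8, were close to 0 in WT MPs. Hoxb8 (ENSMUSG00000056648, chr11:96281905-96285315) is known for its activation by insertion of a retroviral element in a mouse myeloid leukaemia and for holding myeloid progenitors in an immature state when forced on. It was assigned 27.45, 41.57, 36.41 and 34.13 reads in NA MP replicates 1 to 4 and none in any of the 5 WT MP libraries. All NA MP libraries were therefore above all WT MP libraries. The level was 5.41 ± 0.979 CPM (SD, n = 4) in NA MPs, at least 12.1-fold higher than a floor of 3 reads per WT MP library (adjusted p = 3.61e-16 from edgeR). The fitted log2 fold change of 8.18 depends on the prior count that is added before the logarithm, falls to 4.25 with a prior count of 2, and is not a bound.

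Hoxb7 (ENSMUSG00000038721, chr11:96286623-96290162), a gene of kidney duct and trunk development, was assigned 17.55, 22.43, 21.59 and 28.87 reads in the NA MP libraries. In WT MPs it had 1 read in replicate 5 and none in the other libraries, so the groups did not overlap. Its level was 3.45 ± 0.206 CPM in NA MPs and 0.0279 ± 0.0625 CPM in WT MPs (adjusted p = 1.24e-13 from edgeR). With a single read in WT MPs, the log2 fold change of 6.16 is loose.

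The reads of Hoxb7 and Hoxb8 were fractions in every NA MP library, but their sums were whole numbers, 45, 64, 58 and 63 reads. RSEM divides a read that fits several transcripts between them, so a part of these reads was shared out between the pair and the share of each gene is uncertain. Fractional reads occurred for none of the other genes of the cluster. In GENCODE M21 the exons of the pair do not overlap, and the longest stretch their transcripts have in common is 26 bases. The sum is free of this doubt. It was 230 reads in NA MPs against 1 in WT MPs, a ratio of 298 after correction for depth, with an exact 95% counting interval of 53.0 to 11832.

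Hoxb6 (ENSMUSG00000000690, chr11:96292476-96301569), which expands stem cells and myeloid precursors when overexpressed, had 16, 26, 13 and 22 reads in the NA MP libraries and 1, 2, 1, 0 and 0 in the WT MP libraries. The lowest NA MP library was thus far above the highest WT MP library. Its level was 2.94 ± 0.743 CPM in NA MPs and 0.114 ± 0.112 CPM in WT MPs, for a log2 fold change of 4.39 (SE 0.50, adjusted p = 1.08e-10 from edgeR). The depth-corrected ratio of reads was 25.0, with an exact counting interval of 9.37 to 93.9.

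Hoxb5 (ENSMUSG00000038700, chr11:96303336-96306121) marks long-term stem cells in mouse bone marrow. It had 45, 42, 35 and 65 reads in the NA MP libraries and 3, 1, 1, 3 and 3 in the WT MP libraries, with no overlap. The level rose from 0.327 ± 0.172 CPM to 7.12 ± 1.16 CPM, a log2 fold change of 4.36 (SE 0.30, adjusted p = 4.96e-17 from edgeR). The ratio of reads was 22.0 (exact counting interval 12.0 to 44.9).

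Its antisense gene Hoxb5os (ENSMUSG00000085645, chr11:96291024-96306910) had 29, 30, 33 and 29 reads in the NA MP libraries. In the WT MP libraries it had 0, 4, 0, 1 and 1 reads, so WT MP replicate 2 held most of the WT reads and was still far below NA MPs. The level was 4.74 ± 0.856 CPM against 0.161 ± 0.210 CPM, a log2 fold change of 4.82 (SE 0.42, adjusted p = 4.44e-14 from edgeR). Of its 696 exon bases, 100 are shared with Hoxb5 on the other strand. The library kit does not mark strand and the strand setting of the counting is not given in the sources used here, so a small part of the reads of this pair cannot be assigned for certain.

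Hoxb4 and Hoxb3 rose from a level that was already measurable in WT MPs. Hoxb4 (ENSMUSG00000038692, chr11:96318267-96321638) is best known for expanding haematopoietic stem cells when it is overexpressed. It had 117, 132, 118 and 171 reads in the NA MP libraries and 65, 68, 54, 77 and 76 in the WT MP libraries. All NA MP libraries were above all WT MP libraries in both reads and CPM. Its level was 20.6 ± 0.748 CPM in NA MPs and 9.93 ± 1.39 CPM in WT MPs, for a log2 fold change of 1.05 (SE 0.10, adjusted p = 9.41e-12 from edgeR), the smallest of the 7 rises. It was also the best measured member, and the exact counting interval of its ratio of reads, 2.05, ran from 1.79 to 2.36.

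Hoxb3 (ENSMUSG00000048763, chr11:96323326-96347930), a neighbour of Hoxb4 that is active in the same early blood cells, had 28, 46, 33 and 45 reads in the NA MP libraries and 6, 6, 11, 4 and 10 in the WT MP libraries. The groups were again apart. The level was 5.80 ± 0.836 CPM against 1.08 ± 0.447 CPM, a log2 fold change of 2.45 (SE 0.25, adjusted p = 1.57e-11 from edgeR). Hoxb3os, antisense to Hoxb3, rose as well, from 4.49 ± 0.967 to 15.6 ± 1.16 CPM (log2 fold change 1.79, SE 0.14, adjusted p = 2.02e-15 from edgeR). Hoxb3 and Hoxb3os share 2250 exon bases on opposite strands, 52.9% of the exons of Hoxb3, so without strand their rises cannot be told apart in full.

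Hoxb2 (ENSMUSG00000075588, chr11:96350525-96354012), which patterns the hindbrain, went the other way. It had 4, 6, 2 and 14 reads in the NA MP libraries and 9, 12, 22, 12 and 15 in the WT MP libraries. NA MP replicate 4 lay above WT MP replicates 1 and 2 in CPM, so the groups overlapped. The level was 0.928 ± 0.593 CPM in NA MPs and 2.05 ± 0.774 CPM in WT MPs, for a log2 fold change of -1.10 (SE 0.36, adjusted p = 0.0144 from edgeR). The exact two-sided permutation test of the mean CPM gave p = 0.0476 without adjustment. The call rested on single libraries, since the adjusted p from edgeR was 0.0867 without NA MP replicate 3 and 0.0788 without WT MP replicate 3. With DESeq2 it was 0.0516. Hoxb2 shares 953 exon bases, 27.3% of its exons, with Hoxb3os on the other strand, and Hoxb3os moved in the opposite direction.

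The ends of the cluster were silent or nearly so. Hoxb9 (ENSMUSG00000020875, chr11:96271457-96276595), a gene of the thoracic skeleton, had 1, 1, 0 and 2 reads in the NA MP libraries and none in WT MPs, which is at or under the floor in every library, and was not tested. Without the filter its adjusted p from edgeR was 0.0799. Hoxb1 (ENSMUSG00000018973, chr11:96365752-96368256), which sets the identity of a hindbrain segment, had no read in any of the 9 libraries. At this depth that allows a level of up to 0.370 to 0.540 CPM per library. Among the other genes of the span, Gm11536 had 4 reads in NA MPs and none in WT MPs, and Mir10a had none, as had Hoxb13 beyond Hoxb9.

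Levels between genes were compared per length, as CPM per kb of exon. The length counts all annotated exons of a gene in GENCODE M21, not those of the transcripts present. The order of the genes and their shares of the sum depend on it, most of all for the short Hoxb5os (696 exon bases). In NA MPs the order was Hoxb4 (8.02 ± 0.292), Hoxb5os (6.81 ± 1.23), Hoxb5 (2.56 ± 0.418), Hoxb7 (2.23 ± 0.133), Hoxb8 (2.05 ± 0.372), Hoxb6 (1.50 ± 0.378), Hoxb3 (1.36 ± 0.197), Hoxb2 (0.266 ± 0.170) and Hoxb9 (0.0565 ± 0.0408). In this order the steps from Hoxb4 to Hoxb5os, from Hoxb2 to Hoxb9 and those between the neighbours from Hoxb5 down to Hoxb3 were no larger than the sum of both SDs. In WT MPs Hoxb4 led alone with 3.87 ± 0.542, followed by Hoxb2 with 0.588 ± 0.222 and Hoxb3 with 0.255 ± 0.105, each step larger than the sum of the SDs. All other members had a mean of 0.231 or less in WT MPs.

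**Figure D2:**
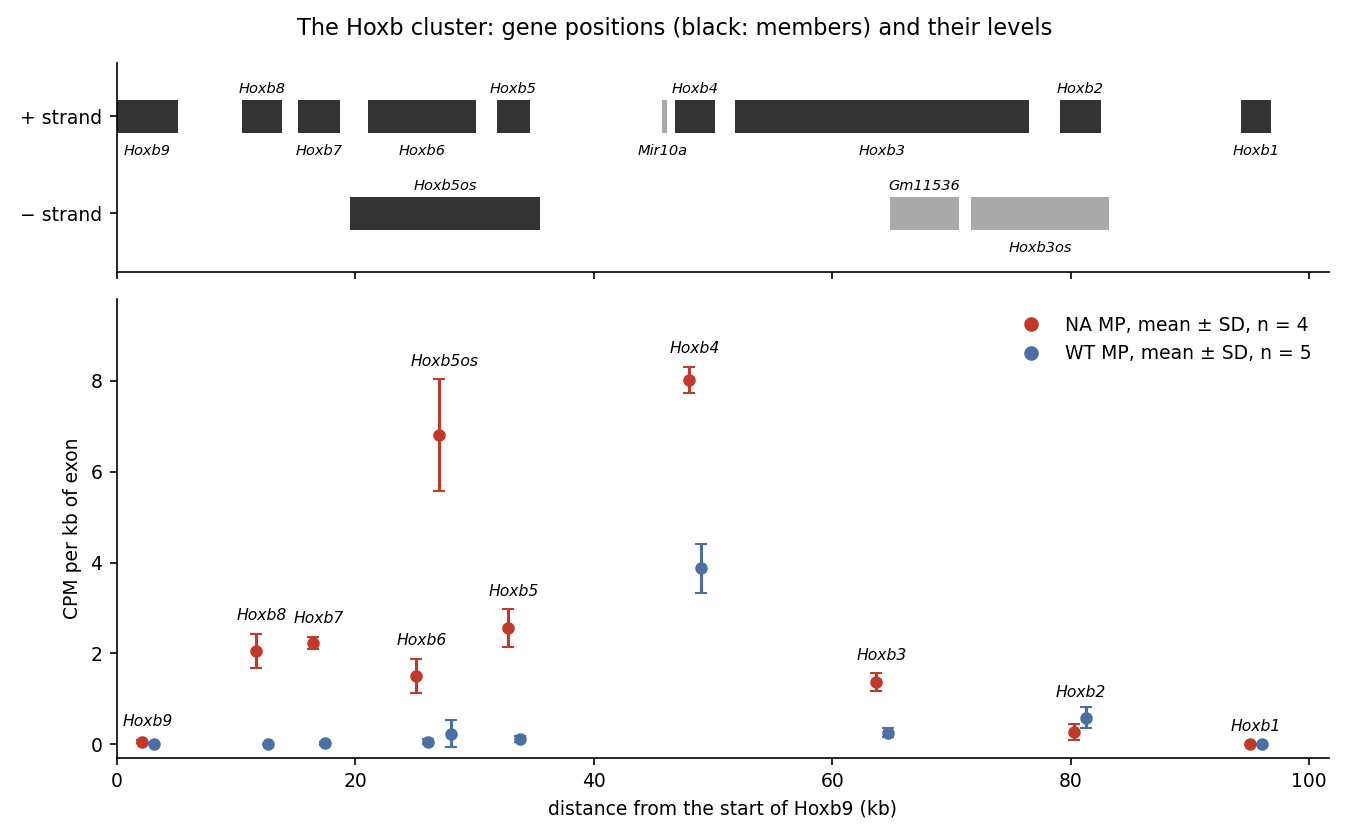
Upper panel, genes of the Hoxb cluster by strand and distance in kb from the start of Hoxb9, members in black and other annotated genes in grey. Lower panel, level of each member in CPM per kb of exon at the middle of the gene, mean ± SD, with NA MPs (n = 4) in red and WT MPs (n = 5) in blue. Hoxb4 has the highest level in both groups (8.02 and 3.87), and the genes from Hoxb8 to Hoxb5 stand between 1.50 and 6.81 in NA MPs and at 0.231 or less in WT MPs.

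The summed level of all members was 24.9 ± 0.863 CPM per kb in NA MPs (23.6 to 25.6, n = 4) and 5.14 ± 0.368 in WT MPs (4.71 to 5.53, n = 5). The sums within a group thus lay close together and far from the other group. The make-up of the sum differed as well. Hoxb4 made up 68.3% to 82.0% of it in the WT MP libraries but 30.9% to 35.1% in the NA MP libraries, without overlap. Hoxb5os took 21.9% to 31.9% of it in NA MPs and up to 14.9% in WT MPs. Hoxb2 took 8.35% to 20.5% in WT MPs and 0.386% to 2.11% in NA MPs. These shares are not independent of one another, since a rise of one member lowers the share of the others.

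**Figure D3:**
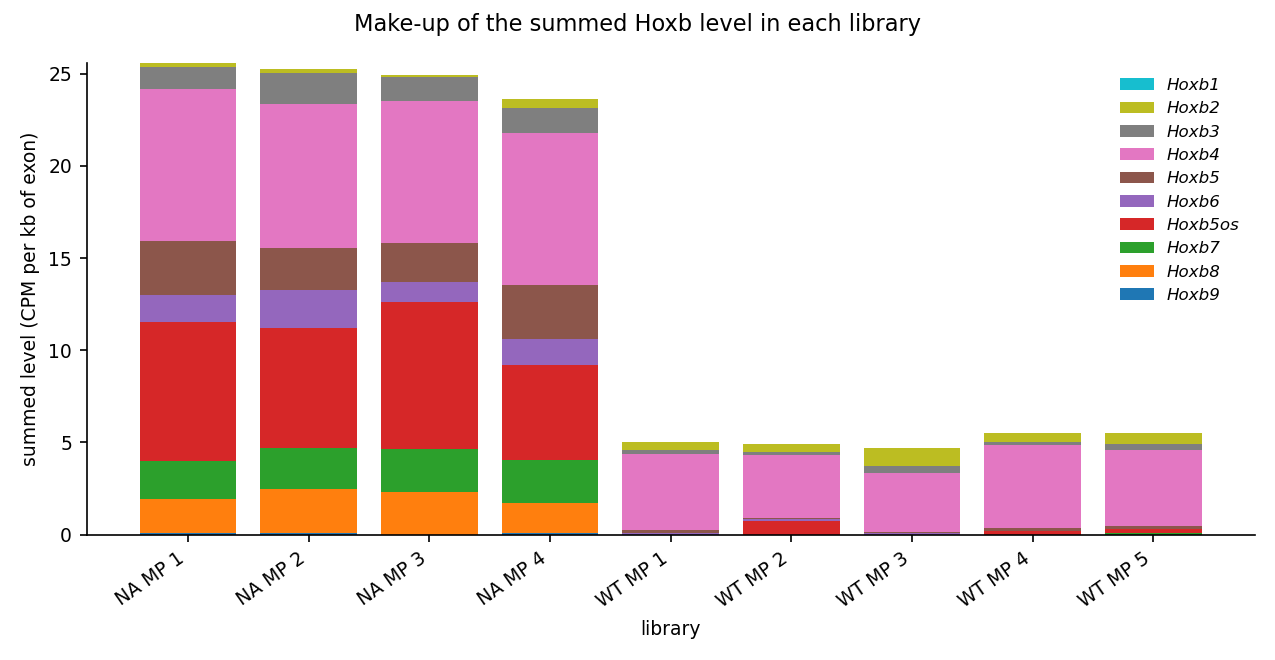
Summed level of the members in each of the 9 libraries, in CPM per kb of exon, with each member as a coloured layer in chromosome order from Hoxb9 at the bottom. The 4 NA MP bars reach 23.6 to 25.6 and hold many layers, and the 5 WT MP bars reach 4.71 to 5.53 and consist mostly of Hoxb4.

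Along the chromosome, the fitted log2 fold changes were 8.18 (Hoxb8), 6.16 (Hoxb7), 4.82 (Hoxb5os), 4.39 (Hoxb6), 4.36 (Hoxb5), 1.05 (Hoxb4), 2.45 (Hoxb3) and -1.10 (Hoxb2). The members from Hoxb8 to Hoxb5 thus had larger fold changes than those from Hoxb4 to Hoxb2, which also held with prior counts of 1 and 2. The order among Hoxb8, Hoxb7, Hoxb5os, Hoxb6 and Hoxb5 did not hold. With a prior count of 2 they stood at 4.25, 3.51, 3.49, 2.93 and 3.56. Hoxb5 also passed Hoxb6 with a prior count of 1, with a replicate block, without NA MP replicate 2 and without WT MP replicate 1, 4 or 5. Neighbouring genes are not replicates, so no test of the order was made. The 8 nearest protein-coding genes on each side of the cluster moved by much less, from -0.12 to 0.18 on the log2 scale where tested. Of these 16 genes, 9 were tested, 1 was higher (Cdk5rap3, log2 fold change 0.18, adjusted p = 0.000799 from edgeR) and 1 was lower (Atp5g1, -0.12, adjusted p = 0.0234 from edgeR), with a median of 0.03. Hoxb13, Ttll6, Calcoco2, Gip and Igf2bp1 had no reads, and Skap1, the gene next to Hoxb1, had 2 reads in each group.

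**Figure D4:**
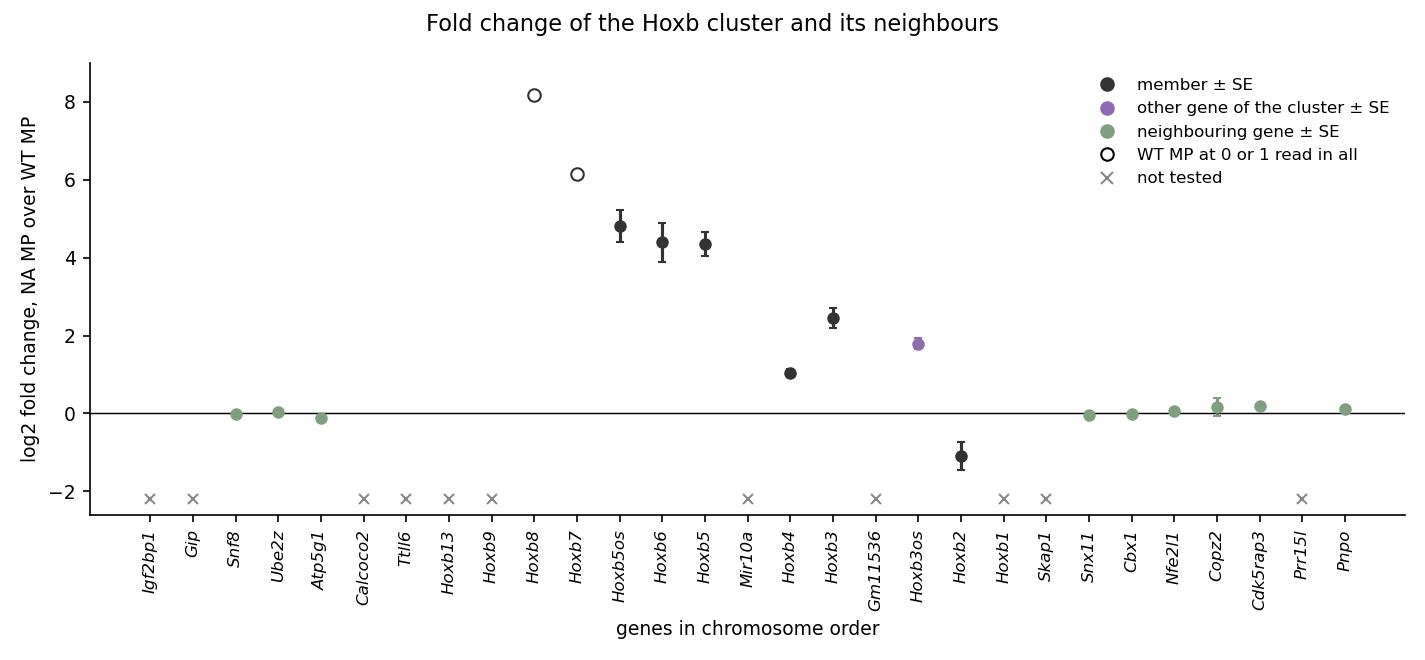
Fitted log2 fold change of NA MPs over WT MPs with its SE for the genes of the Hoxb cluster and the 8 nearest protein-coding genes on each side, in chromosome order but not to scale in distance. Open circles mark Hoxb8 and Hoxb7, with 0 and 1 read in all WT MP libraries, and crosses mark genes that were not tested. The fold changes run from 8.18 (Hoxb8) to -1.10 (Hoxb2) inside the cluster and stay near 0 outside it.

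Among the paralogues in the other Hox clusters, all 7 tested Hoxa genes rose (median log2 fold change 2.32), from 1.70 for Hoxa7 to 3.96 for Hoxa10. Hoxa10 is the gene whose homeodomain is in the fusion, so reads of the fusion and of the gene itself cannot be told apart, and Nup98, the other partner, was at 144 ± 12.3 CPM in NA MPs and 89.8 ± 4.49 CPM in WT MPs. Per kb of exon, the tested Hoxa genes stood in WT MPs at 0.618 (Hoxa2), 0.427 (Hoxa3), 1.95 (Hoxa5), 2.52 (Hoxa6), 6.16 (Hoxa7), 4.34 (Hoxa9) and 0.369 CPM (Hoxa10). Hoxb4 (3.87) was within that range and Hoxb5 to Hoxb8 (0.117 or less) were under it, and the levels of the clusters were not tested against each other. Of the 17 Hoxc and Hoxd genes in the table, 16 had no reads and none was tested.

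**Figure D5:**
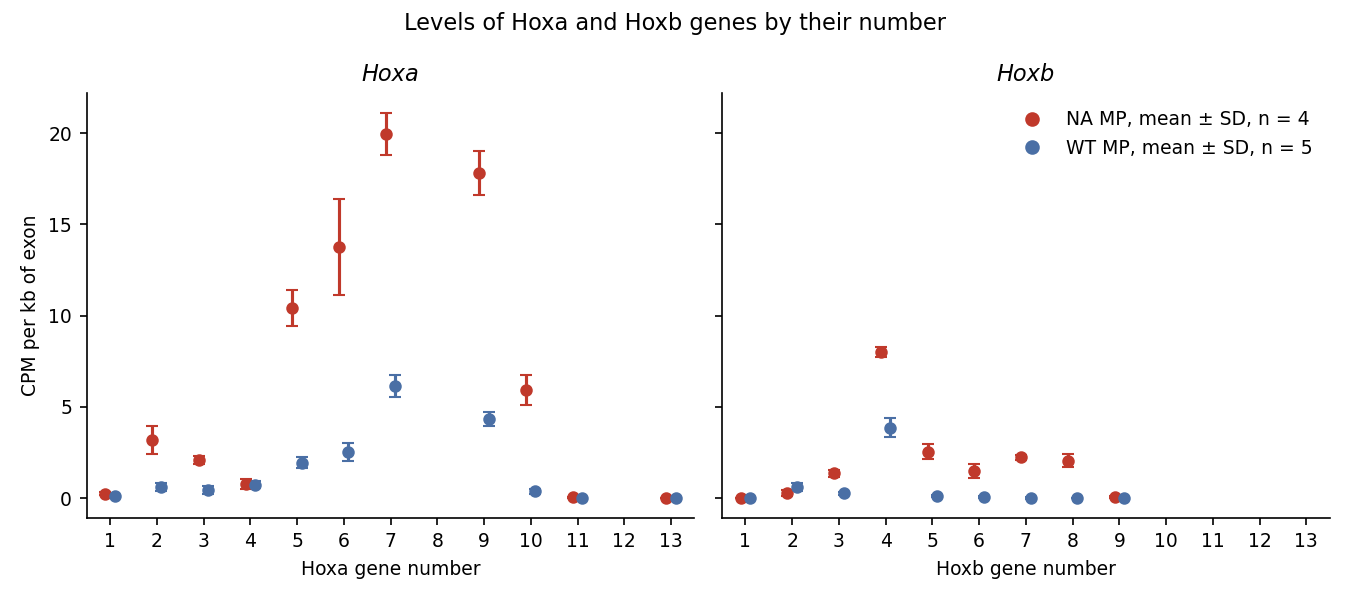
Level of the Hoxa genes (left) and of the protein-coding Hoxb members (right) by gene number, in CPM per kb of exon, mean ± SD, with NA MPs (n = 4) in red and WT MPs (n = 5) in blue. In WT MPs the tested Hoxa genes lie between 0.369 (Hoxa10) and 6.16 (Hoxa7), and among the Hoxb members drawn only Hoxb4 (3.87) lies above 1.

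Of the 9 partner proteins of Hox factors in the Pbx, Meis and Pknox families, 6 were tested, 2 rose and 1 fell. Pbx3 rose by 3.04 on the log2 scale (adjusted p = 2.78e-29 from edgeR), and Meis1 was at 0.02 (adjusted p = 0.882 from edgeR). Of 28 listed regulators of Hoxb genes, 22 were tested, 9 rose and 2 fell, with a median of -0.01. The largest changes were those of the retinoic acid receptors Rara (0.70) and Rarg (0.58) and of Kdm6b (0.48), which removes a Polycomb mark. Kmt2a, which keeps Hox genes active, was at -0.09 (adjusted p = 0.0900 from edgeR). Cdx1, Cdx2 and Cdx4, activators of Hoxb genes in the embryo, had no reads.

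The genes whose profile over the 9 libraries was nearest to the mean of the tested members (Euclidean distance of centred log2 CPM) were Gzmb (0.621), Tmem215 (0.633), Hoxa5 (0.654), Il7r (0.656) and Dntt (0.703). Each of these 5 genes separated all NA MP from all WT MP libraries. They were picked for a profile close to that mean over the same libraries, so this separation is no added result. For comparison, single members lay at distances from 0.968 (Hoxb3) to 5.43 (Hoxb2). The distance depends on the size of a change as well as on its pattern. The 5 genes are also the nearest of all tested genes outside the cluster. The larger distances of the members therefore do not show that they followed the pattern less.

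Markers of other cells differed between the groups as well, and their part in the Hoxb results was not tested. The 10 markers of the sorted cells summed to 24590 to 26940 CPM in NA MPs and 23815 to 24791 CPM in WT MPs, most of it from Mpo (16214 and 15584 CPM). Of these markers 6 rose, most of all Gata2 (log2 fold change 0.44), and 1 fell, Fcgr3 (-0.57). Of 12 markers of stem cells and MPPs, a list that contains Hoxb5, 10 were tested, 6 rose and 3 fell, with sums of 177 to 206 CPM against 130 to 139 CPM. Mecom (log2 fold change 3.29) and Mycn (1.12) were among those that rose, and Mllt3 (-0.43) and Tek (-1.95) were among those that fell. Ly6a, which encodes the Sca1 antigen of the gate, was at 3.22 ± 0.422 CPM and 2.74 ± 0.775 CPM. Fgd5 was not tested, with no read in NA MPs and 8 reads over all WT MP libraries (at most 0.385 CPM in any of them). All 11 markers of pro-B and pre-B cells rose, with sums of 211 to 373 CPM in NA MPs against 54.7 to 59.4 CPM in WT MPs. Erythroid markers fell in 9 of 10 tested genes (757 to 966 CPM against 1382 to 1540 CPM), and mast cell and basophil markers rose in 6 of 8 and fell in 1 (569 to 656 CPM against 401 to 440 CPM). Late neutrophil markers summed to 507 to 789 CPM against 421 to 500 CPM, with 3 of 7 tested genes higher and 1 lower, and T cell markers to at most 1.26 CPM in any library, with no read of Cd3e, Cd3g or Trac. Immediate early genes, which respond to handling as well as to signals, rose in 9 of 9 tested genes (1802 to 3899 CPM against 371 to 820 CPM).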

How the data were processed

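RNA of each sorted sample was made into polyA libraries (TruSeq RNA kit, which does not mark strand). The authors estimated expected counts with RSEM and deposited 1 table of them, and the submitters' notes name mm10 as the build. The deposited expected counts were not as RSEM gives them. Within each sample, 97.3% to 97.7% of the values under 200 were whole multiples of a single step (0.827 to 1.20, tolerance 0.01 reads), so the authors' table had been scaled by 1 factor per sample. Deposited totals were 6602851 to 6734284, and dividing by the step gave 5557721 to 8106140 reads. Reads per gene are given after this division, and CPM are free of the factor.

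The deposited values were rounded to whole numbers, normalized by TMM, filtered (filterByExpr, minimum count 10) and tested with edgeR 4.0.16 in R 4.3.3 (robust quasi-likelihood test, Benjamini-Hochberg adjustment, threshold 0.05). CPM are of the unrounded values with TMM factors. SEs are those of the fitted log2 fold change. Exact counting intervals and floors cover counting error only, at a confidence level of 95%, and reads without molecular identifiers are not independent molecules. Of the 37980 genes, 32916 received a symbol. Positions and exon lengths came from GENCODE M21. Alternatives were RLE or library size normalization, other filters, unrounded values, no robust option, DESeq2 1.42.0, a replicate block, other thresholds and prior counts, and leaving out each sample. Fits on the recovered reads were added after seeing the data. The fits were tested on simulated data. The members, the gene lists and the tests were chosen with earlier results of these data known. The genes named are all members, the other genes of the span, the nearest 8 genes on each side, the fusion partners, the listed paralogues, partners and regulators with the largest changes, and markers of the lists. Not every listed marker is reported here.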

Additional observations from a re-analysis of the deposited data

Results flagged for a closer look

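Hoxb7 in WT MP replicate 5 stood apart from the other WT MP libraries, with 0.14 CPM from 1 read among libraries at 0. In 16 groups of libraries checked for such a gap, chance gives 0.8.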

How the results depend on the processing

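The members and tested genes that passed the threshold were counted again under 23 other settings. A filter of at least 10 counts in every sample left 1 member (Hoxb4) to test, and it passed. Under each of the others 6 to 8 members passed. Leaving out 1 sample left 7 to 8 members and 3632 to 3942 genes past the threshold, beside 4093 genes from all samples. A test against a 2-fold change left 226 genes. With the replicate block 3703 genes and 8 members passed. Same-numbered samples showed no sign of pairing over all genes (correlations from -0.024 to 0.056), but a batch that touches few genes would not show in this check. The block changed no call of a member. DESeq2 called 3065 genes and 7 members. On the recovered reads, edgeR called 4078 genes, of which 4006 were shared with the 4093, and 8 members. Hoxb2 was lost with DESeq2 (adjusted p = 0.0516, and 0.0591 on the recovered reads), without NA MP replicate 3 or WT MP replicate 3, at a threshold of 0.01 and against a 2-fold change, and Hoxb4 against a 2-fold change alone. No member changed direction under any of these settings. The sizes of the largest changes moved most. With a prior count of 2 the log2 fold change was 4.25 for Hoxb8, 3.51 for Hoxb7 and 3.49 for Hoxb5os, that of Hoxb7 was 7.53 without WT MP replicate 5 (1 read), and that of Hoxb5os was 5.67 without WT MP replicate 2 (4 reads). A floor of 3 reads per library limits the levels of Hoxb9 and Hoxb1, and of most members in WT MPs.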
